A study of Mus musculus with 12 samples.

Results

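The 8 immediate early genes Fos, Fosb, Junb, Egr1, Arc, Npas4, Nr4a1, and Ier2, and with them Zfp36 and Klf2, are described here across 12 libraries of the mouse brainstem. They were chosen by symbol and are 10 of the 55418 genes in the count table, and each has 1 row. The list was drawn up with the morphine and saline values of these mice in view, so the measured values behind it are those of the treatment contrast. The difference between treatments is given for its members as a description, and its p values are not printed. Whether a member passed the call rule below, which uses an unadjusted p, is a description too and is no test of the members. The mice were outbred CFW pups that received saline or 15 mg/kg morphine by injection 2 times daily from P1 to P14, and the medulla and pons (brainstem) were dissected on P15, 16 h past the final injection. Each treatment was given to 3 females and 3 males, 6 mice per treatment, with 1 library of poly-A RNA for each mouse. All groups shared the strain, the age, and the injection schedule, and the saline mice are the controls. The study split each litter at random between saline and morphine, and since the litter of each mouse is not in the labels it could not enter the fits. The label for the RNA extraction names spinal cords where the tissue label names brainstem, and the tissue label was followed.

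Immediate early genes are transcribed within minutes of synaptic activity, growth factors, or stress, without the need for new protein, and their RNAs are short lived. CREB, SRF with its ternary complex partners, and MEF2 sit on their promoters and are switched on by calcium and MAP kinase signals, so the RNA of these genes is widely read as a trace of recent neuronal activity. Fos, Fosb, and Junb encode the subunits of AP-1, Egr1 and Npas4 encode activity-dependent transcription factors, Nr4a1 encodes an orphan nuclear receptor, Arc encodes a postsynaptic protein that drives AMPA receptor endocytosis, and Ier2 encodes a small nuclear regulator. Zfp36 encodes tristetraprolin, which binds AU-rich elements and brings inflammatory and immediate early mRNAs to deadenylation. Klf2 encodes a zinc finger factor that is best known in endothelium, where blood flow induces it, and in resting T cells. Zfp36 responds as fast as Fos in many cells, and neither gene is specific to neurons.

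The promoters are shown because factors that switch these genes on bind there and because the members did not move as 1 block. RefSeq (GRCm38.p6) gave the 250 bases before the start of Fos, Fosb, Junb, Npas4, Nr4a1, Zfp36, and Klf2, which are 7 of the 10 members. Capitals mark matches on either strand to the CREB half-site TGACG, to the EGR site GCGNGGGCG, to TATAAA, and to the CArG box that SRF binds. The windows are those that hold matches, all are written on the strand of the gene, and they stop where a transcript begins. Those of Npas4 and Zfp36 are limited to 30 bases, since they lie in an exon of a longer GENCODE M21 transcript. Fos lies at chr12:85473760-85473889 on the plus strand, Fosb at chr7:19310052-19310115 on the minus strand, Junb at chr8:84978829-84978868 on the minus strand, Npas4 at chr19:4990129-4990158 on the minus strand, Nr4a1 at chr15:101266766-101266825 on the plus strand, and Klf2 at chr8:72318812-72319032 on the plus strand. The pair from Zfp36 lies at chr7:28379313-28379342 and chr7:28379267-28379296 on the minus strand.
Fos: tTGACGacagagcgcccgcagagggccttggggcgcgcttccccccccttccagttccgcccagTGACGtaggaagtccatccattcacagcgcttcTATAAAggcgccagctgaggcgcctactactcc
Fosb: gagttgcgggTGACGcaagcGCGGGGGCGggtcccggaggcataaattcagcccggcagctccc
Junb: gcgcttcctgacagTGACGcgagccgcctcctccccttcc
Npas4: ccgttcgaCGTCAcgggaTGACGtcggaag
Nr4a1: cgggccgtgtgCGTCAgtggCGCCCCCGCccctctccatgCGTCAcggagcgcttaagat
Klf2: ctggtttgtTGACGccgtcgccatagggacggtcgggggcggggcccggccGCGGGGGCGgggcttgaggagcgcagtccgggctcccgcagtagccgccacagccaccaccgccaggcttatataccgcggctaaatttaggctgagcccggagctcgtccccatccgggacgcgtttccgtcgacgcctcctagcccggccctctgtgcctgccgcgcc
Zfp36, EGR match: agctacgccGCGGGGGCGcgtcccggaagc
Zfp36, CArG box: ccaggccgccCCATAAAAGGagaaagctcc

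The CREB half-site was in 6 of these 7 members, all but Zfp36, and in 17.8% of the 32851 promoters in the RefSeq table. Fos held it 66 and 129 bases before its start, with TATAAA at 33 bases, and Nr4a1 held it at 4 places. The EGR match was in 4 members, Fosb, Nr4a1, Zfp36, and Klf2, and in 4.70% of all promoters. The CArG box was found in Zfp36 alone among the 7, at 58 bases, and in 1.47% of all promoters. TATAAA was in 1 member against 12.4% of promoters, the GC box GGGCGG, which can overlap the EGR match, in 6 against 32.7%, and the AP-1 site TGANTCA in none against 6.75%. These matches are descriptions of letters in a short window, sites outside it were not searched, and no binding was measured. No difference in these letters separates Zfp36 and Klf2 from the other members, since Fosb and Nr4a1 share the EGR match.

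Between 27850565 and 48097947 reads per mouse were counted on genes, and the members had between 18 and 1963 of them in a library. The library labelled morphine male 6 did not match its sex label, and it matched neither sex. It held 379.9 CPM, a read count scaled to a common library size, of Xist, while the other males held 0.398 to 2.71 CPM and the females 546.8 to 970.5 CPM. Its 4 Y-linked genes were at 8.35% to 29.5% of the mean of the other males, from 9.03 to 19.0 CPM, while no female exceeded 0.729 CPM of any of them. It stayed in its labelled group. The libraries of the saline males stood apart in another way. The deviation of each gene from its mean over the mice followed GC content across genes with r = 0.58 in saline male 1 and r = 0.68 in saline male 2, while it was -0.67 in saline male 3 and between -0.51 and 0.48 in the others. The members are GC-rich, with exons of 51.9% to 62.6% GC (median 57.1%) beside a median of 49.1% for tested genes, so several results below are also given with offsets for GC content and length, which brought these correlations to between -0.055 and 0.080. Brainstem genes were present, with a sum of 580.1 to 758.6 CPM for 9 markers such as Slc6a5 and Tph2, while 5 forebrain markers summed to at most 14.7 CPM and 4 Hox genes of the lumbar cord to at most 0.086 CPM.

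All 10 members were expressed at low to moderate levels and passed the filter on low counts. Divided by exon length and averaged over the 12 mice, Arc was at 7.37 ± 3.27 CPM per kb (SD, n = 12), Fos at 7.12 ± 1.31, and Egr1 at 5.25 ± 0.579. Klf2 was at 2.06 ± 0.515 CPM per kb, Nr4a1 at 2.04 ± 0.472, Ier2 at 1.27 ± 0.765, and Zfp36 at 1.10 ± 0.236. Npas4 at 0.719 ± 0.246, Junb at 0.666 ± 0.550, and Fosb at 0.184 ± 0.0577 CPM per kb closed the order. The mean ± SD of neighbours in this order overlapped at every step except that between Egr1 and Klf2, so the first 3 stood above the rest. This measure does not tell neighbours within each set apart. It does not compare genes within a mouse, so it cannot show that their order was uncertain. Klf2 and Nr4a1 did lie clear of Zfp36, Npas4, Junb, and Fosb by this measure.

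The spread between mice differed from gene to gene. In saline mice the coefficient of variation was 91.9% for Junb, 71.5% for Ier2, and 56.4% for Arc, and the highest saline mouse held 8.44 times the Junb of the lowest. In morphine mice the same coefficients were 16.2%, 27.8%, and 14.9%. These coefficients pool the sexes, and saline males 1 and 2 were the highest saline mice for all 3 genes. In females alone the SD in saline and morphine mice was 0.426 and 0.243 CPM for Junb and 4.64 and 0.795 CPM for Arc. For Ier2 it went the other way in females, at 0.167 and 0.562 CPM. Egr1 and Zfp36 varied least among saline mice, at 13.3% and 13.9%. A test of the difference in spread was not made.

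**Figure D1:**
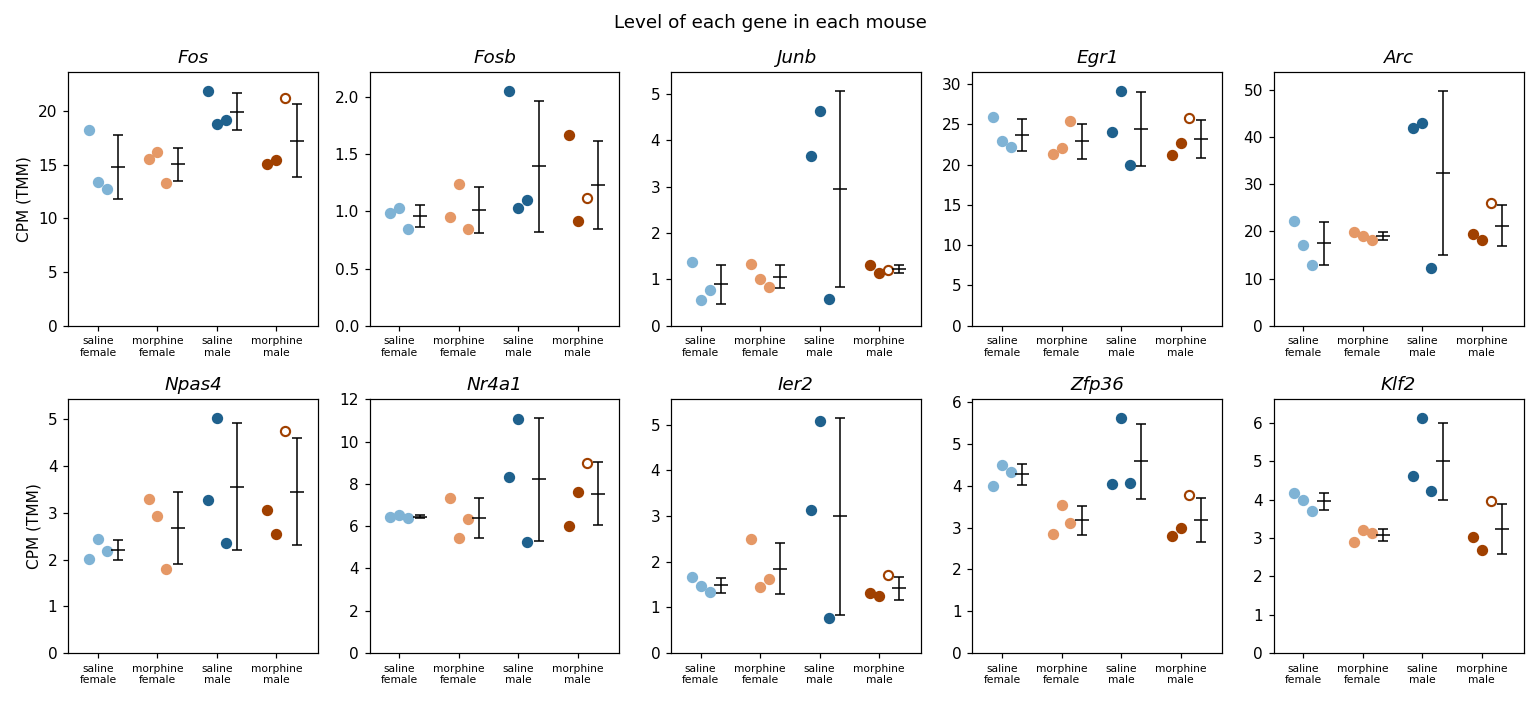
CPM after TMM normalization (y axis, from 0) of each of the 10 genes in each mouse, by group (x axis), with 1 point per mouse. The black mark and bar beside each group are its mean ± SD (n = 3), and the open circle is the library labelled morphine male 6. Zfp36 and Klf2 are lower in morphine mice of both sexes, while Junb, Arc, and Ier2 are high in 2 of the 3 saline males and low in the third.

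Zfp36 was lower in morphine mice than in saline mice. Its lowest, median, and highest levels were 3.99, 4.20, and 5.62 CPM in the 6 saline mice and 2.79, 3.05, and 3.78 CPM in the 6 morphine mice. The groups did not overlap, since the lowest saline mouse lay above the highest morphine mouse, which was the library labelled morphine male 6. The means were 4.43 ± 0.616 CPM in saline and 3.18 ± 0.397 CPM in morphine mice (SD, n = 6 each), a log2 fold change of -0.47 (SE 0.13). Tristetraprolin, its product, limits the life of cytokine mRNAs and of several immediate early mRNAs. In bulk tissue, fewer cells that express a gene and less RNA in each of them cannot be told apart.

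Klf2 was lower by a similar amount. Its lowest, median, and highest levels were 3.71, 4.20, and 6.13 CPM in saline mice and 2.69, 3.08, and 3.96 CPM in morphine mice. The groups overlapped only through the library labelled morphine male 6, at 3.96 CPM, which lay above the lowest saline mouse. The means were 4.47 ± 0.864 and 3.15 ± 0.436 CPM (SD, n = 6 each), a log2 fold change of -0.49 (SE 0.14).

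The thresholds of the study were used to call a gene, an unadjusted p under 0.05 in edgeR together with a log2 fold change past 0.26 in either direction. In the sex-combined comparison, 2 of the 10 members were called, Zfp36 and Klf2, beside 1.19% of the 18608 genes tested, 113 higher (0.607%) and 108 lower (0.58%) in morphine mice. Groups that do not overlap, with morphine lower, were found for 0.0322% of tested genes, which is 6 genes with Zfp36 among them, and in either direction for 0.043%. Because the list was chosen with this contrast in view, the calls of members are a description, and these shares are printed for scale only. No tested gene had an adjusted p under 0.05 in edgeR, where 246 had an unadjusted p under 0.05, and none had one in DESeq2. Leaving out each of the 12 mice in turn gave log2 fold changes between -0.52 and -0.39 for Zfp36 and between -0.55 and -0.40 for Klf2, in mice that all took part in the choice of the list. With offsets for GC content and length, Zfp36 was at -0.48 (SE 0.13) and was called, beside 1.61% of tested genes, while Klf2, whose GC content is above that of 98.2% of tested genes, kept its size at -0.50 (SE 0.23) but was not called. Without the library labelled morphine male 6 both were called, beside 1.17%.

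In each sex the morphine mice lay below the saline mice. In females Zfp36 was at 3.99, 4.50, and 4.33 CPM with saline and at 2.86, 3.54, and 3.12 CPM with morphine. In males it was at 4.05, 5.62, and 4.07 CPM with saline and at 2.79, 2.98, and 3.78 CPM with morphine, the last being the library labelled morphine male 6. Neither pair of groups overlapped. The log2 fold change was -0.43 (SE 0.18) in females and -0.53 (SE 0.23) in males.

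Klf2 followed the same course. In females it was at 4.17, 3.98, and 3.71 CPM with saline and at 2.89, 3.20, and 3.12 CPM with morphine. In males it was at 4.62, 6.13, and 4.23 CPM with saline and at 3.03, 2.69, and 3.96 CPM with morphine. Again neither pair overlapped, which was so, with morphine lower, for 2.87% of tested genes in females and 4.06% in males, and in either direction for 5.65% and 9.1%. The log2 fold change was -0.37 (SE 0.17) in females and -0.63 (SE 0.24) in males. Of the 10 members, 1 was called in females (Zfp36), beside 1.81% of tested genes, 0.884% lower and 0.928% higher with morphine. In males 1 was called (Klf2), beside 2.99%, 1.07% lower and 1.92% higher. Without the library labelled morphine male 6 both were called in males, Zfp36 at -0.68 (SE 0.27) and Klf2 at -0.82 (SE 0.27), beside 2.47% of tested genes. With the offsets both were called in females, beside 1.7% of tested genes, and neither in males, beside 6.45%.

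**Figure D2:**
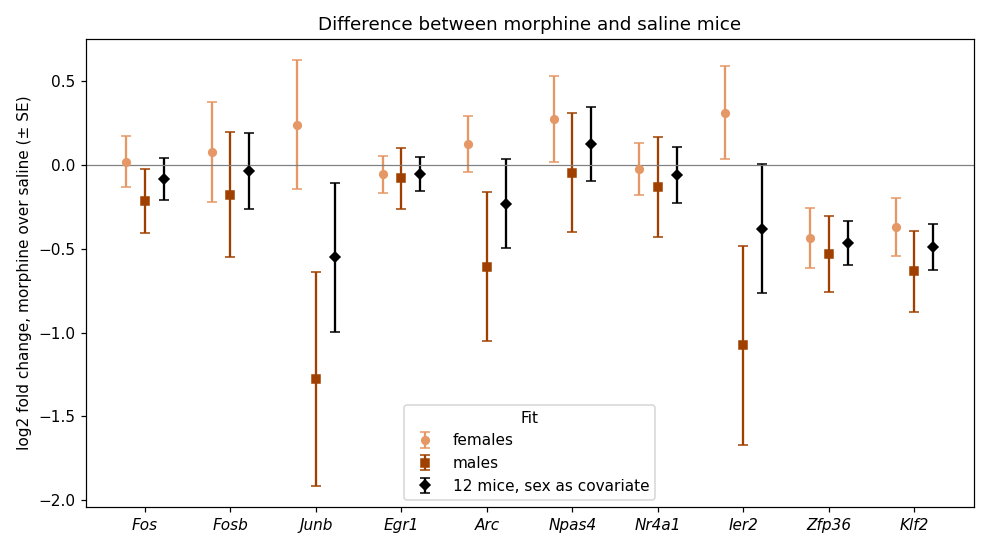
log2 fold change of morphine over saline mice (y axis) for each gene (x axis) in the fits of 6 females (circles), 6 males (squares), and 12 mice with sex as a covariate (diamonds), with bars of ± SE. Zfp36 and Klf2 lie below 0 in all 3 fits, and the widest bars belong to Junb, Ier2, and Arc in males.

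With the filter on low counts and TMM scaling, edgeR called none of the 8 immediate early genes in the sex-combined comparison or within a sex, also on p alone. In males other settings called some of them, all lower with morphine. The DESeq2 Wald test called Junb at -1.26 (SE 0.61). With no filter edgeR called Junb and Ier2, beside 2.83% of genes, and it called both with the contrast taken from the fit of 12 mice, beside 4.15%. Without saline male 3 it called Junb, Arc, and Ier2, beside 28.6%. In females Arc was called without saline female 4, higher with morphine at 0.33, beside 7.95%. The median log2 fold change of the 8 was -0.071 over the 12 mice, beside -0.020 for all tested genes, and it was 0.10 in females and -0.20 in males, beside -0.0058 and -0.064. The median over the 12 mice lay between -0.15 (without saline male 3) and -0.051 (without morphine male 5) when 1 mouse was left out, and it turned to 0.25 without saline males 1 and 2. Within females it fell to -0.0018 without saline female 6 and reached 0.20 once saline female 4 was left out, and within males between -0.38 (without morphine male 6) and -0.081 (without morphine male 5). Of the AP-1 subunits, Fos, the prototype of the class, had its lowest, median, and highest levels at 12.7, 18.5, and 21.9 CPM in saline mice and at 13.3, 15.5, and 21.2 CPM in morphine mice. The 2 ranges lay over each other, and the log2 fold change was -0.082 (SE 0.13). Fosb, whose splice form ΔFosB builds up under repeated drug exposure, ran from 0.849 to 2.06 CPM with a median of 1.03 in saline mice and from 0.844 to 1.66 CPM with a median of 1.04 in morphine mice. Its log2 fold change was -0.035 (SE 0.23), and counts per gene do not separate the splice forms.

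Egr1, a zinc finger factor of growth and plasticity, was the steadiest of the 8. It ran from 20.0 to 29.2 CPM with a median of 23.5 in saline mice and from 21.2 to 25.7 CPM with a median of 22.3 in morphine mice, a log2 fold change of -0.050 (SE 0.10). Npas4, which is induced by calcium in neurons, was the only member with a positive value, 0.13 (SE 0.22), with medians of 2.39 CPM in saline and 3.00 CPM in morphine mice and overlapping ranges. Nr4a1 had medians of 6.49 and 6.85 CPM and a log2 fold change of -0.060 (SE 0.17).

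Junb, Arc, and Ier2 had the largest negative values of the 8, and all 3 rested on the same saline males. Junb, the partner of Fos that restrains AP-1, was at 3.67, 4.62, and 0.582 CPM in saline males 1, 2, and 3, at 1.31, 1.15, and 1.21 CPM in morphine males, and at most at 1.37 CPM in any female. Arc was at 41.9, 42.9, and 12.2 CPM in the saline males and at 19.4, 18.2, and 26.1 CPM in the morphine males. Ier2 was at 3.13, 5.08, and 0.766 CPM in the saline males and at 1.31, 1.25, and 1.71 CPM in the morphine males. Saline males 1 and 2 lay above every morphine male and saline male 3 below every one for all 3 genes. The log2 fold changes over the 12 mice were -0.55 (SE 0.44) for Junb, -0.23 (SE 0.27) for Arc, and -0.38 (SE 0.39) for Ier2.

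Leaving out saline males 1 and 2 turned the direction of these 3 genes and not that of the other pair. Junb then had a log2 fold change of 0.50 (SE 0.30), Arc of 0.34 (SE 0.18), and Ier2 of 0.49 (SE 0.23), while Zfp36 was at -0.40 (SE 0.15) and Klf2 at -0.37 (SE 0.15). Zfp36 and Klf2 were the members called, beside 11.7% of all tested genes, 1856 higher and 408 lower. With offsets for GC content and length over the 12 mice, Junb was at -0.26 (SE 0.23), Arc at -0.10 (SE 0.085), and Ier2 at -0.19 (SE 0.18). Junb overlaps by 351 bases with Prdx2, an abundant gene on the opposite strand at 103.9 to 222.2 CPM, and the strand setting of the counting is not given in the sources used here, so the Junb counts are uncertain. The gene antisense to Zfp36 had at most 3 reads in a library.

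The 8 genes tracked the GC-rich part of the transcriptome from mouse to mouse. Their median deviation from their own means was 0.62 and 0.70 on the log2 scale in saline males 1 and 2 and -0.33 in saline male 3, and the median deviation of the tenth of tested genes with the highest GC content was 0.69, 0.85, and -0.75 in the same mice. In the library labelled morphine male 6 the 2 values were 0.23 and 0.31, and in saline female 6 they were -0.36 and -0.45. With the offsets, the 8 genes were at 0.16, 0.10, and 0.20 in the saline males and between -0.30 and 0.043 in the other mice. The part that this library difference plays in the RNA of the immediate early genes was not tested, and activity and library composition cannot be told apart in these counts. The 5 other genes most like the mean z score of the 8 over the 12 libraries were Gtpbp6, Ctif, Rrp9, Tmem121, and Esrra, with r between 0.984 and 0.986, and 1810 of 18598 genes had an r over 0.9. With the offsets, 2 genes did.

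**Figure D3:**
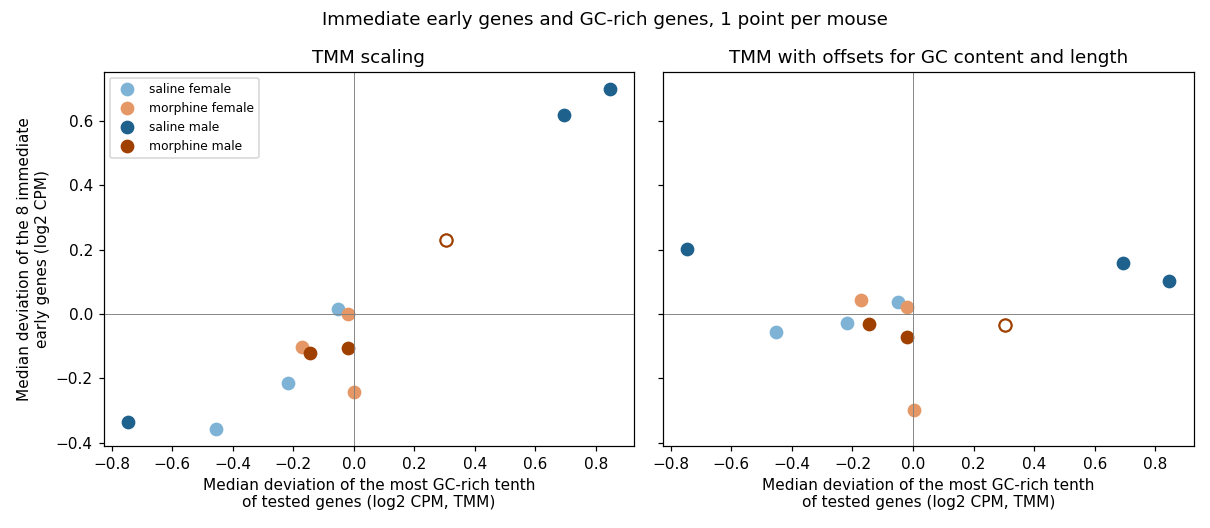
Median deviation of the 8 immediate early genes from their means (y axis, log2 CPM) against that of the tenth of tested genes with the highest GC content (x axis, log2 CPM), with 1 point per mouse coloured by group and an open circle for the library labelled morphine male 6. With TMM scaling (left) the points rise from saline male 3 to saline males 1 and 2, and with offsets for GC content and length (right) the saline males lie between 0.10 and 0.20.

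Whether the morphine difference depended on sex was tested with an interaction term. Values by sex were among the earlier results known when the list was drawn up, so the tests by sex are not independent of it in full. With the filter on low counts and TMM scaling, edgeR found that none of the 10 members passed the call rule or an unadjusted p of 0.05, beside 2.94% of 19027 genes called, 1.33% with a negative and 1.61% with a positive value, and none with an adjusted p under 0.05. The DESeq2 Wald test called 1 of the 10, Ier2, and edgeR with no filter called Junb and Ier2, beside 4.44% of genes. With TMM scaling all 10 estimates were negative, and with the offsets for GC content and length 4 of them, Egr1, Nr4a1, Zfp36, and Klf2, were positive. Junb was at -1.50 (SE 0.80, adjusted p = 0.985), Ier2 at -1.37 (SE 0.69, adjusted p = 0.985), and Arc at -0.72 (SE 0.51, adjusted p = 0.985). For Zfp36 the difference between the sexes was -0.080 (SE 0.27, adjusted p = 0.990) and for Klf2 -0.25 (SE 0.28, adjusted p = 0.985), so the SEs leave room for a sex difference of the size of the effect itself. The Zfp36 value took the other sign, at 0.020, with scaling by total counts. Without saline male 3, Junb, Arc, and Ier2 were called at -2.01, -1.13, and -1.85, but so were 24.1% of all tested genes, and without saline female 4 Junb was called at -1.96, beside 4.89%. Without the library labelled morphine male 6 no member was called, beside 3.39% of genes.

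Labelled males were then compared with females, adjusted for treatment. With TMM scaling all 10 estimates were positive, and 3 of the members were called in edgeR, beside 3.94% of 18608 tested genes in either direction, 3.05% with males higher and 0.892% with males lower. Fos was higher by 0.30 on the log2 scale (SE 0.13, adjusted p = 0.734), Junb by 0.98 (SE 0.44, adjusted p = 0.734), and Npas4 by 0.52 (SE 0.22, adjusted p = 0.734), so none held after Benjamini-Hochberg adjustment. Fos was at 18.8 to 21.9 CPM in the 3 saline males and at 12.7 to 18.2 CPM in the 3 saline females, without overlap, as were 1.46% of tested genes with males higher. In morphine mice it was at 15.1, 15.4, and 21.2 CPM in males and at 15.6, 16.2, and 13.3 CPM in females, with overlap.

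Without saline males 1 and 2, Junb differed by -0.037 (SE 0.29), Fos by 0.25 (SE 0.14), and Npas4 by 0.28 (SE 0.22), none of them called. The 1 member called was then Ier2, lower in males at -0.55, beside 2.06% of genes. Without the library labelled morphine male 6 the 1 member called was Junb at 1.08 (SE 0.48), beside 2.42%. With offsets for GC content and length the 1 member called was Fos at 0.29 (SE 0.11), beside 2.75%, and the estimates of Egr1, Ier2, Zfp36, and Klf2 were negative.

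Zfp36 and Klf2 were correlated over the 12 mice. Their log2 CPM had an r of 0.91 over these mice, 0.71 within saline mice, and 0.82 within morphine mice. These values describe libraries that share a GC trend. Saline male 2 was the highest saline mouse for both genes, at 5.62 and 6.13 CPM. Among the other saline mice, the highest Zfp36 (4.50 CPM, saline female 5) went with 3.98 CPM of Klf2. The highest Klf2 (4.62 CPM, saline male 1) went with 4.05 CPM of Zfp36. The library labelled morphine male 6 was the highest morphine mouse for both, at 3.78 and 3.96 CPM. The r within a treatment was not computed without either library. Both genes were lower in morphine mice and were listed with that contrast in view, so the value over the 12 mice also holds the treatment difference. The share of other gene pairs with such r values was not tested. With the offsets the r was 0.81 over the 12 mice, 0.85 within saline mice, and 0.76 within morphine mice. The median r of either gene with the 8 immediate early genes was 0.37 over the 12 mice and 0.12 with the offsets. Among the 28 pairs of immediate early genes the median r was 0.58, with a range from -0.17 to 0.93, the highest being Junb with Arc. With the offsets the median was 0.095, and Junb with Arc kept an r of 0.69.

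Fos was compared with each of the other 9 members over the 12 mice by permutation tests. By Pearson's r the highest was Arc (r = 0.60, permutation p = 0.038, adjusted p = 0.16, Spearman's rho = 0.59, permutation p = 0.049, adjusted p = 0.15). Npas4 followed (r = 0.56, permutation p = 0.058, adjusted p = 0.16, rho = 0.54, permutation p = 0.076, adjusted p = 0.15). By rho the highest was Fosb (r = 0.52, permutation p = 0.087, adjusted p = 0.16, rho = 0.62, permutation p = 0.037, adjusted p = 0.15), and Klf2 had the same rho as Arc (rho = 0.59, permutation p = 0.049, adjusted p = 0.15). The lowest was Zfp36 (r = 0.24, permutation p = 0.45, adjusted p = 0.45, rho = 0.18, permutation p = 0.57, adjusted p = 0.57). No pair of the 9 had an adjusted p under 0.05, and 1 pair by r and 3 pairs by rho had an unadjusted p under 0.05. With the offsets Arc stayed the highest (r = 0.64, permutation p = 0.023, adjusted p = 0.21).

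Without saline male 1 and the library labelled morphine male 6, the mice farthest from the median of Fos, the r with Arc was 0.36 and with Npas4 0.38. Removing mice picked as extremes of Fos narrows its range, so these lower values cannot show whether the relations rest on them. Without the library labelled morphine male 6 alone the r was 0.59 with Arc and 0.43 with Npas4. Without the 3 saline males it was 0.90 with Arc and 0.65 with Npas4. Within morphine mice the r was 0.92 with Arc (exact permutation p = 0.046) and 0.92 with Npas4 (exact permutation p = 0.038), each with an adjusted p of 0.21. Without the library labelled morphine male 6, the other 5 morphine mice gave an r of 0.46 with Arc and 0.86 with Npas4, and with the offsets 0.98 and 0.91. Within saline mice it was 0.59 (exact permutation p = 0.21) and 0.39 (exact permutation p = 0.47).

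**Figure D4:**
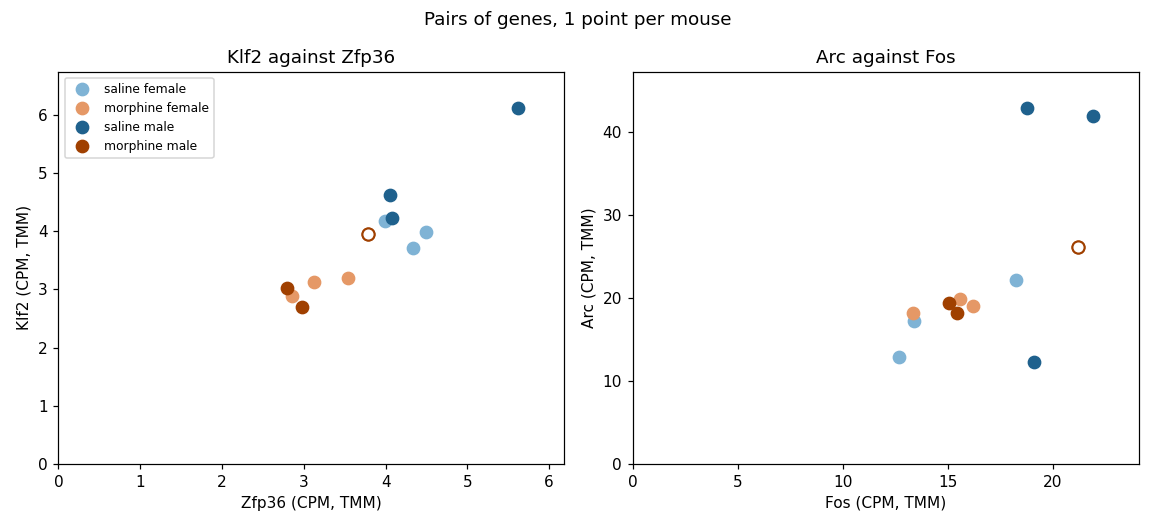
Klf2 against Zfp36 (left) and Arc against Fos (right) in CPM after TMM normalization, both axes from 0, with 1 point per mouse coloured by group and an open circle for the library labelled morphine male 6. Klf2 and Zfp36 lie along 1 line (r = 0.91) with morphine mice at its lower end, while Arc in saline males 1 and 2 lies far above the other mice at a similar level of Fos.

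The wider set held other rapidly induced genes with the transducers, heat shock genes, and endothelial targets around them. Of 89 further genes in 11 lists, 87 were tested over the 12 mice, and 1 was called, Zfp36l1, beside 1.19% of all tested genes. In total, 30 were higher and 57 lower in morphine mice, with a median log2 fold change of -0.045. Of the 58 tested genes left without transducers, heat shock genes, and endothelial targets, 21 were higher and 37 lower, with a median of -0.064 beside -0.020 for all tested genes. Among the 5 tested AP-1 partners the median was -0.0018, with 2 higher and 3 lower. Jun was at -0.22 (SE 0.13) and Jund at -0.19 (SE 0.13), while Fosl2 was at 0.16 (SE 0.11) and Atf3 at 0.20 (SE 0.22). The 18 feedback regulators, such as the phosphatase genes Dusp1 and Dusp6 and the kinase gene Sgk1, had a median of -0.10, with Sgk1 at 0.057 (SE 0.13). The 11 neuronal effectors, such as the scaffold gene Homer1 and the granin gene Scg2, had a median of -0.040, and Homer1 was at -0.040 (SE 0.11). The 21 upstream transducers, the kinases and factors that switch these promoters on, had a median of -0.040. The 2 NR4A family genes were both higher, with a median of 0.19. The 13 other rapid transcription regulators had a median of -0.00021, with 6 higher and 7 lower. The 5 EGR family genes had a median of -0.056, with 2 higher and 3 lower, and the 2 matricellular genes, both lower, of -0.16. None of the genes in these lists was called.

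Within a sex, 2 of the further genes were called in females, both lower with morphine, beside 1.81% of tested genes. They were Ccn2 at -0.62 (SE 0.21), which encodes a matricellular growth factor, and Thbd at -0.55 (SE 0.20), which encodes thrombomodulin. None of 87 was called in males in edgeR with the filter and TMM scaling or in DESeq2, other edgeR settings called 0 to 3, and 25 were called there once saline male 3 was left out, when 28.6% of all tested genes were called. Between the sexes 6 were called, all higher in males: Dusp4, Gadd45g, Mrtfa, Crtc2, Crtc3, and Hspa1b, with log2 fold changes from 0.28 to 1.24. Of all tested genes 3.94% were called, 3.05% with males higher. This fit holds the saline males with their GC trends and the library labelled morphine male 6, whose part in these 6 calls was not tested.

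Zfp36 has relatives that also bind AU-rich mRNAs, and Klf2 has known targets in endothelium, and both lists were drawn up by this knowledge. Zfp36l1, a paralog of Zfp36, ran from 3.19 to 8.75 CPM in saline mice and from 3.38 to 4.16 CPM in morphine mice, and its log2 fold change was -0.44 (SE 0.19). The groups overlapped, and without saline males 1 and 2 the value was -0.14 (SE 0.16) and was not called. Zfp36l2 was at -0.29 (SE 0.16) and was not called. Of the endothelial genes that KLF2 is known to induce, Thbd was at -0.36 (SE 0.17), Nos3 at -0.25 (SE 0.37), and S1pr1 at -0.064 (SE 0.076), none of them called over the 12 mice. The saline mean of S1pr1, 135.0 CPM, lay above that of Flt1, 87.1 CPM, the most abundant of the endothelial markers below. Bulk counts do not show which cells hold S1pr1, so its value may say little about endothelium. Without saline males 1 and 2 Thbd was called at -0.53 (SE 0.16), beside 11.7% of all tested genes. Within males Thbd was at -0.21 (SE 0.25), and at 0.011 (SE 0.19) without saline male 3, and was called in neither fit.

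**Figure D5:**
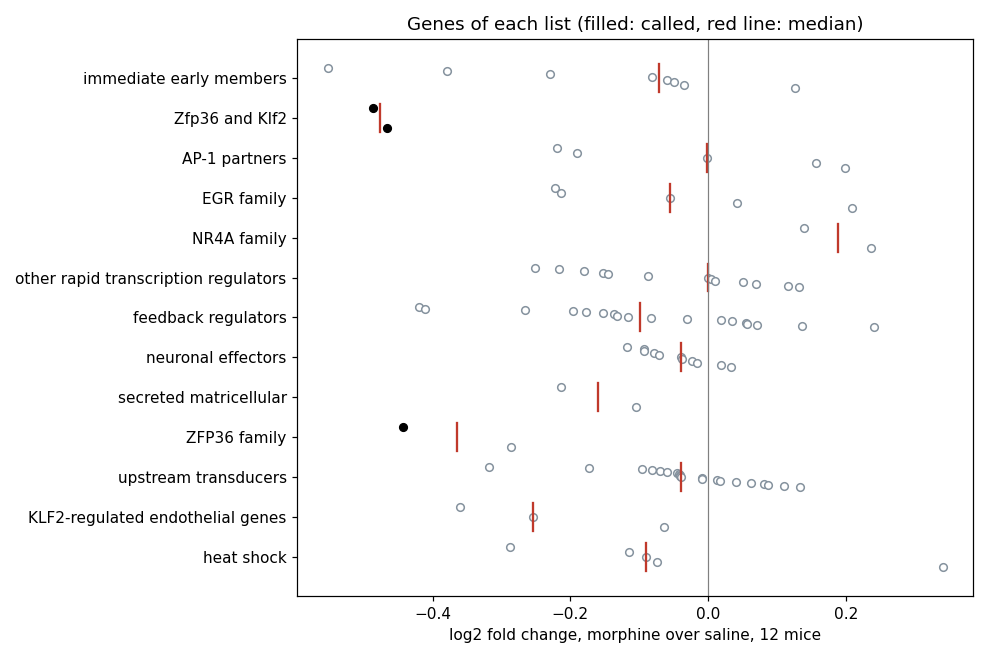
log2 fold change of morphine over saline mice in the sex-combined fit (x axis) for each tested gene of each list (y axis), with called genes filled and the median of a list as a red line. The filled points are Zfp36, Klf2, and Zfp36l1, and the medians of the other lists lie between -0.25 and 0.19.

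Markers of vessels and blood are given beside the pair, since both genes are also expressed in endothelium and leukocytes. The sum of 10 endothelial markers ran from 305.4 to 405.8 CPM in saline mice and from 309.9 to 360.0 CPM in morphine mice, with medians of 348.8 and 347.5 CPM. Of these 10 genes, 1 was called, Emcn, which encodes endomucin of veins and capillaries, at -0.32 (SE 0.11). Over the 12 mice 1.19% of all tested genes were called, 0.58% lower with morphine. The sum of 7 neutrophil markers ran from 1.91 to 7.21 CPM with a median of 4.25 in morphine mice and from 4.08 to 13.5 CPM with a median of 7.04 in saline mice. S100a8 and S100a9 of this list were called at -1.30 (SE 0.36) and -1.08 (SE 0.40), and 1 of the 7 stayed under 0.1 CPM in every library. In females 3 of the 4 neutrophil markers tested were called lower, S100a8, S100a9, and Ltf, and the median of the 4 was -1.47. Of all genes tested in females, 1.81% were called, 0.884% lower with morphine. Saline male 2, the mouse with the most Zfp36 and Klf2, had 5.14 CPM of the neutrophil sum and the highest endothelial sum. The 4 tested markers of pericytes and smooth muscle were all lower over the 12 mice (median -0.15), none called, with sums of 308.8 to 379.4 CPM in saline and 273.4 to 358.0 CPM in morphine mice. In females Acta2 and Myh11 of this list were called lower, at -0.61 (SE 0.18) and -0.54 (SE 0.17), beside the same 0.884%. The 4 tested red blood cell markers were all lower over the 12 mice (median -0.22), none called, with sums of 111.4 to 472.4 and 131.8 to 263.6 CPM, while 3 of the 4 were higher in females. The 7 microglial markers had sums of 141.1 to 230.5 and 160.4 to 188.6 CPM, with none called. The part of these cells in the lower Zfp36 and Klf2 was not tested.

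Markers of other cell types also differed between the groups, and whether the dissection plays a part was not tested. Of 4 markers of cerebellar granule cells, 3 (Gabra6, Fat2, and Cbln3) were called higher in morphine mice, beside 1.19% of tested genes. Their list had a summed level of 25.9 to 67.4 CPM in morphine mice and 17.8 to 33.9 CPM in saline mice. The same 3 were called in males, where the median of the 4 was 0.94, beside 2.99% of tested genes, 1.92% higher and 1.07% lower. In females 0 of 4 were called, with 2 higher and 2 lower. Choroid plexus markers ranged from 9.59 to 519.2 CPM in saline and from 28.8 to 826.5 CPM in morphine mice, with 0 of 4 called over the 12 mice. In males 3 of them were called higher with morphine, beside the same 1.92%. Between the sexes 3 were called higher in males, beside 3.05% of tested genes. Dcn of the 5 markers of meningeal fibroblasts was called lower at -0.49 (SE 0.22). None of 5 neuronal, 5 astrocyte, 5 oligodendrocyte, or 9 brainstem markers was called over the 12 mice, while Mobp of the oligodendrocyte list was called lower in males. The part of these cell types in the values of the members was not tested.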

How the data were processed

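Brainstem RNA of 12 mice was measured by the authors, who used Trimmomatic on 100 bp single-end reads, STAR for alignment to mm10, and featureCounts for reads on the exons of an Ensembl annotation, as their processing notes and methods state. Versions and the strand setting are not given in the sources used here. The deposited values are raw counts for 55418 genes (27850565 to 48097947 per library), and no column was left unmapped. Groups came from the labels, and dam, a covariate of the study, is in no label and was not used.

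The edgeR quasi-likelihood test (version 4.0.16, R 4.3.3) was run on genes kept by filterByExpr after TMM normalization, with sex (12 mice), no covariate (within a sex), treatment and sex with their interaction, or the sex term. Calls needed a p under 0.05, unadjusted, and a log2 fold change past 0.26 in either direction, and Benjamini-Hochberg adjustment was over all genes tested. CPM used TMM factors of the 12 libraries, and logs a prior count of 2. Offsets were lowess curves (span 0.5) on GC content and exon length of GENCODE M21. Correlations used 100000 permutations, or all of them within 6 mice. Promoters came from RefSeq.

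The members, lists, tests, and alternatives were chosen with earlier results of these data known. All members were named, with the called genes and the 3 most abundant genes of each list as candidates, and the 5 genes most like the mean of the 8. Nothing says whether the mice of a group came from separate litters, so p values measure the spread between these mice. An exact permutation test of 3 against 3 mice cannot give a p under 0.1. The fits were tested on simulated data.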

Additional observations from a re-analysis of the deposited data

Results flagged for a closer look

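In 4 of the 20 groups of 6 mice (10 genes in saline and in morphine mice), 1 mouse lay farther from the others than the 95% critical value of Dixon's test (0.625 of the range) allows, and chance gives about 1 in 20. The library labelled morphine male 6 was the highest of the morphine mice for Fos, at 21.2 CPM, and for Arc, at 26.1 CPM. Saline male 1 was the highest of the saline mice for Fosb, at 2.06 CPM. Saline male 2 was the highest of the saline mice for Zfp36, at 5.62 CPM. Once it was left out, the log2 fold change of Zfp36 was -0.39, in mice that all took part in the choice of the list. The GC trends of these libraries stand beside the results, and their part in these values was not tested.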

How the results depend on the processing

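Over the 12 mice, 2 members were called in every fit that left out 1 mouse (2 to 2) and in 10 of 11 other settings, and 1 with offsets for GC content and length. The list was chosen with this contrast in these mice in view, so these counts are a description and no independent check. Within females (1 called), the count was 0 with no filter on low counts and 2 with the offsets, and 0 to 2 without 1 mouse: 2 without saline female 4 and 0 without saline female 5 or 6 or morphine female 1 or 3. Within males (1 called), it was 0 with total counts, 3 with no filter, 2 in DESeq2, 0 with the offsets, 0 with the offsets and without morphine male 6, and 4 with the contrast from the fit of 12 mice. Without 1 male it was 0 to 5, with 5 without saline male 3, 2 without morphine male 6, and 0 without any other. For the interaction (0 called) it was 2 with no filter, 1 in DESeq2, and 0 to 3 without 1 mouse, with 3 without saline male 3 and 1 without saline female 4. For males against females (3 called) it was 1 with the offsets, 1 without saline males 1 and 2, 1 with the offsets and without morphine male 6, and 0 to 5 without 1 mouse, with 5 without saline male 3 and 0 without saline female 5 or 6. Without saline male 3, 20.9% of all tested genes were called for males against females, 28.6% within males, and 24.1% for the interaction, while the other settings called at most 6.19%, 6.54%, and 5.68%. Within females the share was 1.12% to 3.73%, and 7.95% without saline female 4. Over the 12 mice it was 0.937% to 2.42%, and 11.7% without saline males 1 and 2. No correlation with Fos had an adjusted p under 0.05 in any of the 8 alternatives.

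Of the further genes, 1 was called over the 12 mice, and the count was 0 with total counts, 2 with no filter, 2 in DESeq2, 2 on p alone, 0 with the replicate block, 11 without saline males 1 and 2, and 0 to 4 without 1 mouse, with 4 without saline male 1 or 3 or morphine female 3 and 0 without saline male 2, saline female 6, morphine female 1 or 2, or morphine male 4. In females (2 called) it was 5 with no filter, 4 on p alone, and 0 to 8 without 1 mouse, with 8 without saline female 4, 4 without saline female 5 or morphine female 2, and 0 without any other. In males (0 called) it was 2 with total counts, 1 with no filter, 3 with the offsets and without morphine male 6, 1 with the contrast from the fit of 12 mice, and 0 to 25 without 1 mouse, with 25 without saline male 3, 2 without saline male 1, and 1 without morphine male 6.

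The interaction value turned sign for Zfp36 at 0.020 with total counts and 0.036 with the offsets, ranging from -0.22 to 0.082 without 1 mouse, and for Klf2 at 0.20 with the offsets. The male against female value of Junb turned at -0.037 without saline males 1 and 2. Samples of the same number deviated together with r between -0.36 and 0.18, so the numbers were not taken as pairs. With the replicate block 2 members were called over the 12 mice and 2 in males against females. The interaction could not be fitted with the block, and the fits within a sex share no numbers. The settings with offsets and those that leave out saline males 1 and 2 were chosen with the data in view. The causes were not tested. Depth limits Junb, Fosb, and Ier2 most, with as few as 18, 23, and 25 reads in a library.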

Other observations

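With offsets for GC content and length, the 5 other genes most like the mean z score of the 8 immediate early genes over the 12 libraries were 2510017J16Rik, Fibin, B230344G16Rik, Gm31834, and Gm26794, with r between 0.85 and 0.90. None of them was among the 5 found with TMM scaling. Outside the saline males, in the other 9 mice, Fos and Arc had an r of 0.90 and Zfp36 and Klf2 of 0.88, and with the offsets these values were 0.85 and 0.96. These mice span both treatments, so the values for Zfp36 and Klf2 also hold the treatment difference.

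Hspa1b, a stress-induced chaperone gene of the heat shock list, ran from 0.547 to 4.41 CPM in saline mice and from 0.713 to 7.23 CPM in morphine mice. Gadd45g, a stress and growth arrest gene that is induced as fast as Fos, ran from 1.90 to 8.91 CPM in saline mice and from 1.70 to 4.34 CPM in morphine mice.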
